A study of Mus musculus with 45 samples.

Results

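The genes described here are 38 genes of the G1/S transition and of DNA replication in mouse lung mononuclear phagocytes, chosen by name from a fixed list of replication genes and all present among the 23594 genes of the deposited expression table. They fall by role into origin licensing (Mcm2 to Mcm7, Cdc6, Cdt1), helicase activation (Cdc45, Gins1, Gins2, Gins3, Mcm10), polymerases and primase (Pole, Pole2, Pola1, Prim1, Prim2), the clamp and lagging strand machinery (Pcna, Rfc3, Rfc4, Rfc5, Fen1, Lig1, Dna2, Rpa2), nucleotide supply (Rrm1, Rrm2, Tyms, Tk1, Dut), chromatin and histone supply (Uhrf1, Chaf1a, Chaf1b, Slbp) and G1/S control (Ccne1, Ccne2, E2f1). Of the 38 genes, 32 reached 5 TPM in at least 2 libraries and entered the tests, and Cdc6, Gins3, Mcm10, Pole, Pola1 and Tyms did not. TPM is a level scaled for transcript length and for the total of the library, so levels can be set side by side between genes.

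The study profiled polyA RNA of cells sorted by flow cytometry from the lungs of C57BL/6J mice after lipopolysaccharide (LPS, a bacterial cell wall component that triggers inflammation) given into the peritoneum. The 3 cell types were inflammatory monocytes (iMo), which enter the lung from blood, interstitial macrophages (IM), which sit in the lung tissue, and alveolar macrophages (AM), which live in the air spaces. Groups were iMo without LPS (0h) and after 2h, 6h or 20h of LPS with 2 libraries each, IM likewise with 2 libraries each, and AM with 4 libraries without LPS, 2 after 2h, 3 after 6h and 2 after 20h, which makes 27 libraries. No genotype, transgene, dose, sex or age is named in the labels used here, the last time is given here as in the sample labels although the series text differs, and nothing says whether replicates came from separate mice, so p-values measure the spread between these libraries only. The 18 libraries of LPS given through the nose were not used, because the gene names beside their values do not match those of the other libraries.

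DNA replication starts when Cdc6 and Cdt1 load the ring of Mcm2 to Mcm7 onto origins in G1, and the loaded helicase is switched on in S phase by Cdc45 and the GINS complex. Most genes of this machinery are targets of E2F transcription factors, which cyclin E and its kinase free from the retinoblastoma protein at the G1/S boundary. Blood monocytes are mostly not cycling, whereas alveolar macrophages renew themselves by division in the lung. In sorted bulk RNA, more cells of a kind in S phase and more RNA per cell cannot be told apart.

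The promoters of 32 of the 38 genes were in the RefSeq table (build GRCm38.p6), each a window from 250 bases before to 50 bases after the start. Mcm4, Gins1, Gins2, Pole, Prim2 and Ccne2 were not in it. An E2F-type site was searched as the 8-letter words TTTGGCGC, TTTCCCGC, TTTCGCGC and TTTGCCGC on either strand. Words on opposite strands can overlap one another. A match was found in 12 of the 32 genes (37.5%), against 704 of the 27025 genes of the table (2.60%) and 337 of the 7082 tested genes that have a promoter in it (4.76%). The 32 here and below include Cdc6, Gins3, Mcm10, Pola1 and Tyms, which were not tested, so they are not a part of the tested genes alone. Those 12 were Mcm3, Mcm5, Mcm6, Mcm7, Cdc6, Cdt1, Gins3, Pole2, Pola1, Rfc3, Lig1 and Uhrf1, and in 4 of them (Mcm3, Cdt1, Pole2, Lig1) the match lay after the start. With the first letter of each word dropped, the 7-letter words matched 20 of the 32 genes (62.5%), against 10.9% of the table and 19.2% of the tested genes. The G2/M element TTTGAA, searched on both strands and overlapping none of the E2F words, was present in 4 of the 32 (12.5%), against 20.2% of the table and 14.0% of the tested genes. A match is a description of the letters and not a bound site. These 5 stretches of 100 bases, 5′ to 3′ on the strand of the gene and all before the start, are shown because licensing genes lead the results below and because Cdc6 and Uhrf1 share the element, and capitals mark the matches. They lie at chr8:75109336-75109435 (plus strand), chr1:128359736-128359835 (minus), chr5:138171969-138172068 (minus), chr11:98907993-98908092 (plus) and chr17:56304108-56304207 (plus).
Mcm5: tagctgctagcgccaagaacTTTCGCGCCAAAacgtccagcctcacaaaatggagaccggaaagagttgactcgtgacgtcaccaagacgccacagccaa
Mcm6: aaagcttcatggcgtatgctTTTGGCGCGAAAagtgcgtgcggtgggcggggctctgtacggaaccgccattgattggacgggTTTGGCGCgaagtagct
Mcm7: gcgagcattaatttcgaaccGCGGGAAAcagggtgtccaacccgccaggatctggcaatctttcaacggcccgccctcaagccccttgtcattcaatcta
Cdc6: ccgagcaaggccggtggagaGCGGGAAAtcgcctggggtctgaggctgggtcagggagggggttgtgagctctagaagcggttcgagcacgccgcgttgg
Uhrf1: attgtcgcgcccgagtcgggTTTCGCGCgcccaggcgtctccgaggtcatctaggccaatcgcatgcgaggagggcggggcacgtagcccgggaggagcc
In Mcm5 and at the first position in Mcm6 a pair of overlapping words on opposite strands makes 1 run of capitals, and the Mcm6 stretch holds 3 matches in all. Mcm2, Rrm2, Dna2, Slbp and E2f1 held no 8-letter match in their windows, which says only that these letters were not there.

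Title codes and cell type markers bear on the comparisons. All iMo and IM libraries at 0h and 3 of the 4 AM libraries at 0h carry 1 number in their titles, here code III, while the LPS libraries and the remaining AM library at 0h carry lower numbers, here code II and, in 6 libraries, code I, so that for iMo and IM LPS and title code cannot be told apart in comparisons with 0h. The comparison of 20h with 2h lies within the LPS codes and within code II alone for iMo. Defining markers fitted the labels in part. Alveolar macrophage markers summed to 4322 to 16741 TPM in AM and 369.5 to 2122 TPM in the other libraries, where Chil3, a gene of monocytes too, is on the list. Interstitial macrophage markers summed to 6317 to 7791 TPM in IM at 0h, 496.0 to 1241 TPM in IM at 2h and 6h and 2300 to 2408 TPM in IM at 20h. In iMo they summed to 1503 and 1540 TPM at 0h, 793.1 and 1390 TPM at 2h, 378.6 and 407.5 TPM at 6h and 1954 and 2067 TPM at 20h. On this list iMo and IM libraries thus overlapped at 2h. On classical monocyte markers they overlapped at each LPS time, at 2679 and 3559 TPM in iMo and 3374 and 3633 TPM in IM at 20h. Mature neutrophil markers reached 11200 to 54933 TPM in every IM library. One AM library, 20h A161219, had interstitial macrophage markers at 3989 TPM, against 182.1 to 435.6 TPM in the other AM libraries. Most AM results at 20h are given with and without that library. Markers of other lung cells were higher in IM without LPS than in IM after LPS. Endothelial markers (6 genes, all tested) summed to 7.4 to 39.7 TPM in the 6 IM libraries after LPS and to 513.1 and 683.0 TPM in IM at 0h. Lung epithelial markers (6 genes, all tested) summed to 16.2 to 57.5 TPM after LPS and 677.6 and 342.0 TPM at 0h, and lymphocyte markers (8 genes, 5 tested) to 7.9 to 30.9 TPM after LPS and 116.4 and 129.3 TPM at 0h. These markers move with every IM comparison against 0h, and their part in those results was not tested.

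The replication genes were at their highest at 20h of LPS in iMo and IM, while in AM few changes passed the test at any time. The summed level of all 38 genes in iMo was 156.5 and 148.0 TPM at 0h, 98.1 and 86.2 TPM at 2h, 186.6 and 165.8 TPM at 6h and 662.6 and 533.2 TPM at 20h. In IM it was 144.3 and 176.7 TPM at 0h, 56.6 and 81.1 TPM at 2h, 80.1 and 95.2 TPM at 6h and 315.6 and 420.6 TPM at 20h. In AM the sum was 201.4 to 449.5 TPM at 0h (median 230.4 over 4 libraries), 222.2 and 437.3 TPM at 2h, 318.8 to 427.4 TPM at 6h (median 406.1 over 3) and 450.6 and 348.9 TPM at 20h. The 20h libraries of iMo and IM thus lay above all earlier libraries of their cell type. In AM the 20h library A161219, at 348.9 TPM, did not. The other AM library of 20h, at 450.6 TPM, lay just above the highest earlier one, AM 0h D171227 at 449.5 TPM.

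**Figure D1:**
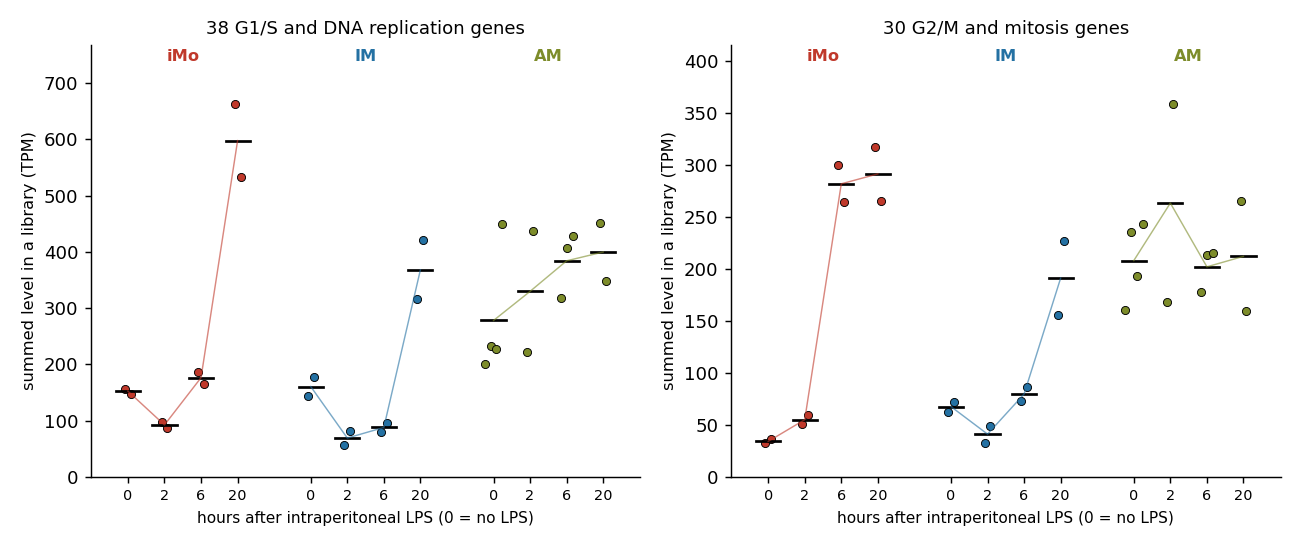
Summed level in TPM of the 38 G1/S and DNA replication genes (left) and of 30 G2/M and mitosis genes (right) in each library, by cell type and hours after LPS. Points are libraries, black lines are group means and thin lines join the means. The replication sum of iMo is low up to 6h and is 533.2 and 662.6 TPM at 20h, while the G2/M sum of iMo is already 264.2 and 299.6 TPM at 6h.

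Both 20h libraries of iMo exceeded all 6 earlier iMo libraries for 34 of the 38 genes, against 10.4% of all tested genes, and the exceptions were Gins3, Dna2, Tyms and Slbp. In IM this held for 32 of the 38 genes, against 15.2% of all tested genes, with Gins1, Gins3, Pola1, Pcna, Dna2 and Slbp as exceptions. In AM it held for 4 of the 38 genes, Mcm7, Cdc6, Lig1 and Uhrf1, against 0.313% of all tested genes. Without AM 20h A161219, 1 library of 20h remained and exceeded the earlier AM libraries for 10 of the 38 genes, against 2.53% of all tested genes. These counts cover all 38 genes, while the shares beside them are of the 8937 genes that passed the filter on low values. Of the 32 tested genes, 30 in iMo, 28 in IM and 3 in AM had both 20h libraries above all earlier ones. Without AM and the 20h libraries of iMo and IM, 16 of the 32 would pass that filter.

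**Figure D2:**
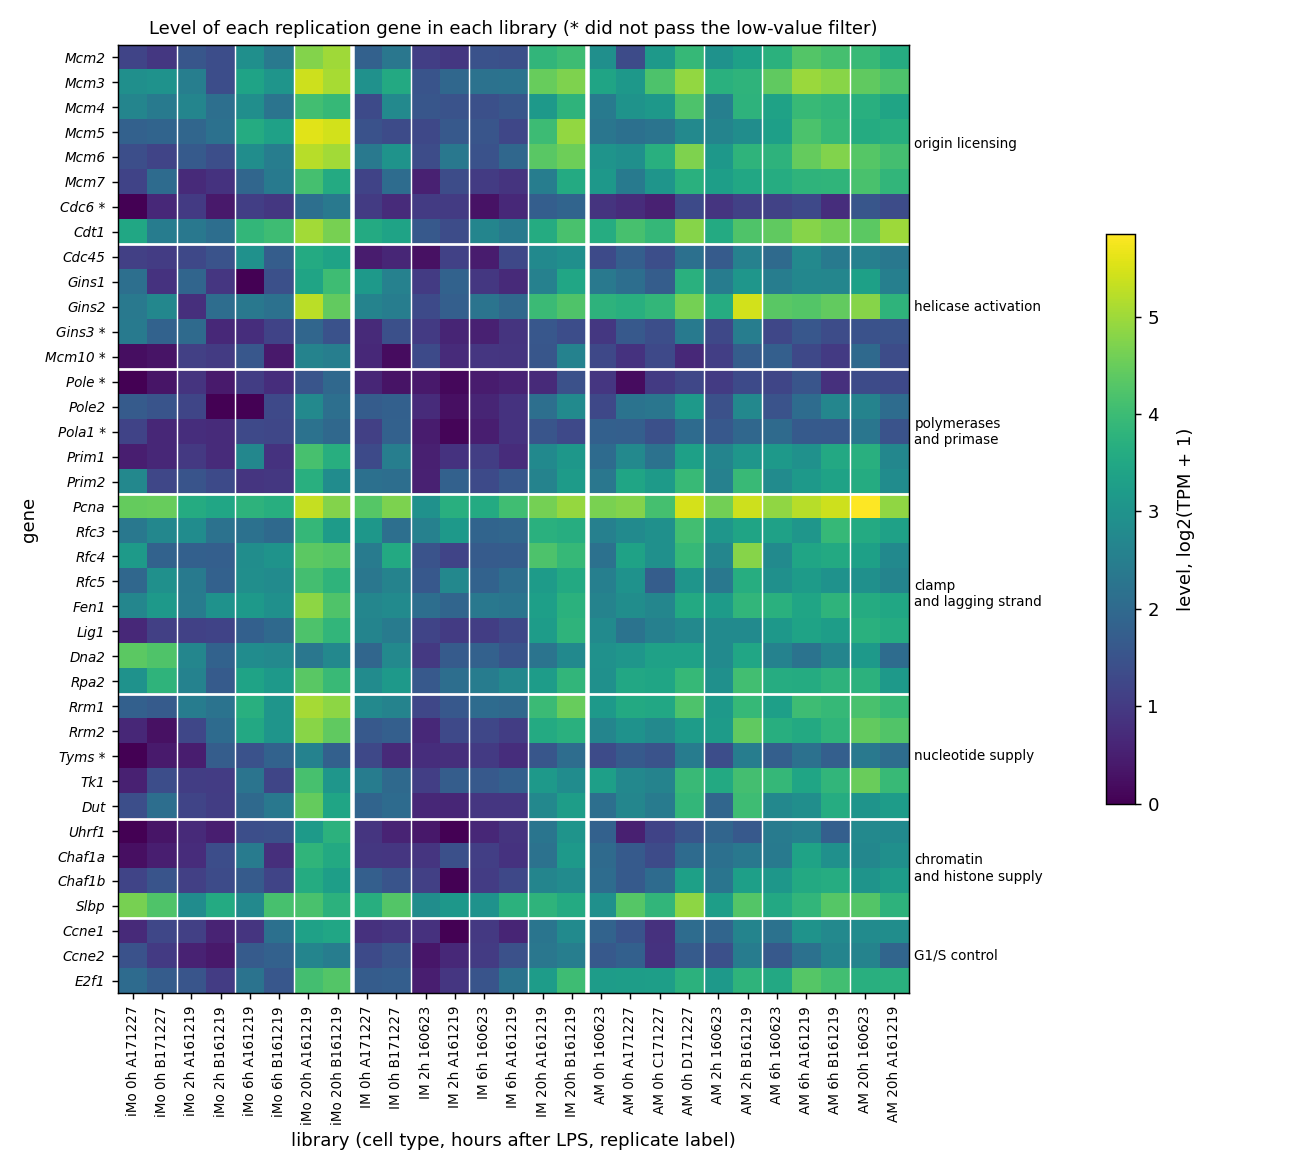
Level of each of the 38 genes in each of the 27 libraries on the scale log2(TPM + 1), genes grouped by role and libraries by cell type and time. The columns of iMo 20h and IM 20h are bright across nearly all rows, with Dna2 brightest in iMo 0h.

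In the comparison of 20h with 2h, 29 of the 38 genes rose in iMo and none fell, against 14.7% of all tested genes that rose. Of the other 9 genes, Rfc3, Dna2 and Slbp did not pass the test and 6 were not tested. In IM, 30 of the 38 genes rose and none fell, where 31.8% of all tested genes rose. Rfc3 and Slbp did not pass. In AM none of the 32 tested genes passed limma's test in either direction, where 0.0224% of all tested genes did, and 3 had an unadjusted p under 0.05. Left without AM 20h A161219 this count was also 0. Fold changes below are on the log2(TPM + 1) scale, which understates the change of low genes, and have the median over every tested gene subtracted. That median was 0.14 in iMo, 0.65 in IM and -0.28 in AM for this comparison. Calls and p-values test the change before the median is taken away, so a relative estimate can lie nearer to 0 or further from it than its p would show. On this relative scale the median of the tested replication genes was 2.42 in iMo, 1.48 in IM and 0.61 in AM (0.67 without AM 20h A161219).

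Leaving out each library in turn, 23 of the 29 genes of iMo and 20 of the 30 of IM kept their call at every turn. In iMo the call was lost for Mcm4, Gins1, Pole2, Prim2, Pcna and Rfc5, with adjusted p between 0.0502 and 0.256. In IM it was lost for Mcm4, Gins1, Pole2, Prim2, Pcna, Rfc5, Dna2, Rpa2, Tk1 and Chaf1a, with adjusted p between 0.0551 and 0.402. Without the 6 libraries of code I, which include 1 of the 2 IM libraries at 2h, 23 genes rose in IM and 29 in iMo.

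**Figure D3:**
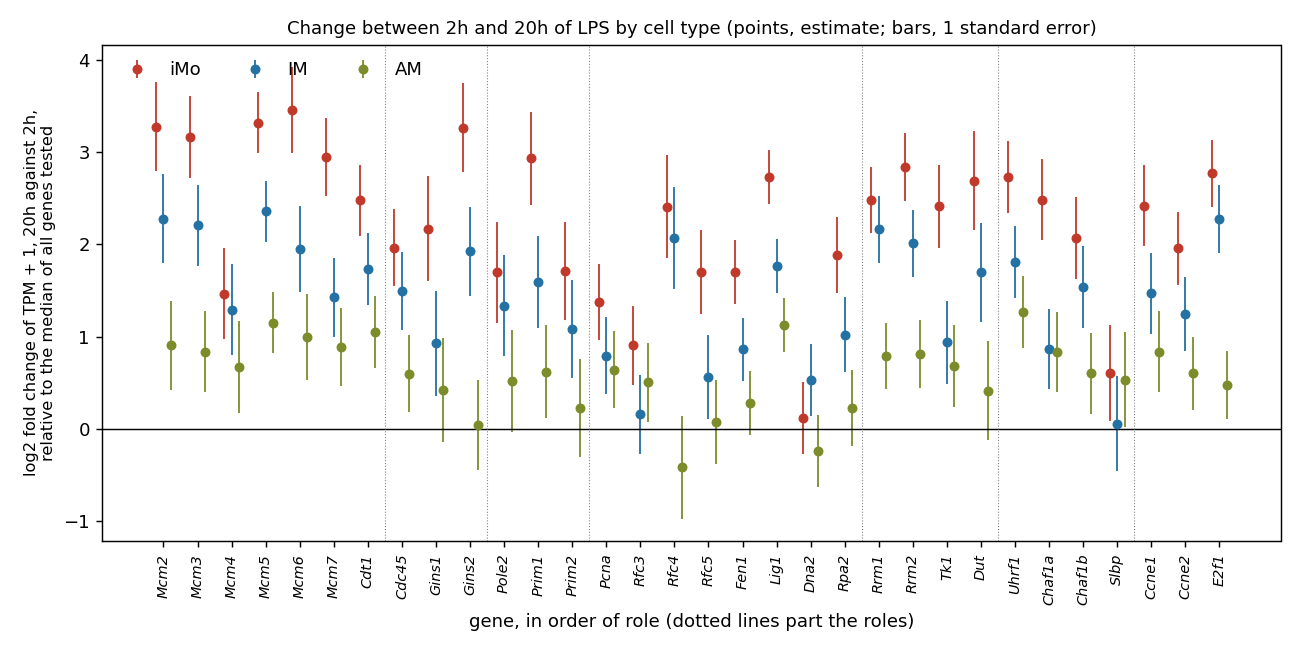
Log2 fold change of TPM + 1 at 20h against 2h of LPS, less the median over every tested gene, for the 32 tested replication genes in order of role. Points are estimates and bars 1 standard error. Nearly all iMo points lie above those of IM and AM, with Mcm6 highest at 3.45 in iMo and Dna2 near 0.

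At 20h against 2h the largest change in iMo and in IM was that of an origin licensing gene. Mcm5, a ring subunit of the replicative helicase, stood in iMo at 2.51 and 2.71 TPM at 0h, 2.80 and 3.54 TPM at 2h, 11.1 and 9.23 TPM at 6h and 46.6 and 42.4 TPM at 20h. In IM it stood at 1.78 and 1.54 TPM at 0h, 1.40 and 2.10 TPM at 2h, 1.91 and 1.37 TPM at 6h and 15.2 and 28.7 TPM at 20h. The 6h libraries thus lie above the 2h ones in iMo and overlap them in IM. Its relative log2 fold change at 20h against 2h was 3.31 ± 0.33 in iMo (SE, adjusted p = 2.38e-07) and 2.36 ± 0.33 in IM (adjusted p = 2.59e-06). Mcm6 changed most in iMo, with 36.2 and 31.8 TPM at 20h against 2.17 and 1.65 TPM at 2h, and a relative log2 fold change of 3.45 ± 0.47 (adjusted p = 6.54e-06). Mcm2 had 26.2 and 31.1 TPM at 20h against 1.98 and 1.59 TPM at 2h in iMo, and 13.4 and 15.3 TPM at 20h against 1.11 and 0.929 TPM at 2h in IM. All 7 tested licensing genes rose in both cell types, from 1.46 for Mcm4 to 3.45 for Mcm6 in iMo and from 1.29 for Mcm4 to 2.36 for Mcm5 in IM. Cdt1, the loader, had 31.9 and 24.0 TPM at 20h against 4.06 and 3.33 TPM at 2h in iMo. Its partner Cdc6 stayed too low for the tests, with 3.42 and 4.12 TPM at 20h against 0.979 and 0.321 TPM at 2h in iMo, and the groups do not overlap.

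Among helicase activators, Gins2, a GINS subunit, had 36.6 and 20.8 TPM at 20h against 0.715 and 3.29 TPM at 2h in iMo, a relative log2 fold change of 3.26 ± 0.48 (adjusted p = 1.79e-05). In IM it had 14.9 and 17.9 TPM at 20h against 1.48 and 2.42 TPM at 2h, a change of 1.92 ± 0.48 (adjusted p = 0.00035). Cdc45, which joins GINS and the ring into the active helicase, rose by 1.96 ± 0.42 in iMo (adjusted p = 0.000735) and 1.49 ± 0.42 in IM (adjusted p = 0.000504). Gins1 rose by 2.17 ± 0.57 in iMo (adjusted p = 0.00432) and 0.93 ± 0.57 in IM, where the change tested was 1.58 (adjusted p = 0.0311). Mcm10, which helps to start the helicase, was not tested and had 5.10 and 4.66 TPM at 20h against 1.15 and 1.01 TPM at 2h in iMo. Gins3 was likewise not tested, at 2.83 and 1.78 TPM at 20h against 3.06 and 0.603 TPM at 2h in iMo, and its groups overlap.

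Primase lays the RNA primers of each new strand. Its catalytic subunit Prim1 had 16.8 and 11.8 TPM at 20h against 0.971 and 0.638 TPM at 2h in iMo, a relative log2 fold change of 2.93 ± 0.50 (adjusted p = 9.02e-05). In IM it had 5.79 and 7.58 TPM at 20h against 0.432 and 0.821 TPM at 2h, a change of 1.59 ± 0.50 (adjusted p = 0.00147). Prim2 rose by 1.71 ± 0.53 in iMo and 1.09 ± 0.53 in IM. Pole2, a subunit of the leading strand polymerase, rose by 1.70 ± 0.55 in iMo and 1.34 ± 0.55 in IM. The catalytic subunits Pole and Pola1 stayed below 4 TPM in all 27 libraries, Pole at 1.93 and 2.93 TPM and Pola1 at 3.60 and 2.96 TPM in iMo at 20h.

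The lagging strand genes were the least uniform role. Lig1, the ligase that joins lagging strand fragments, had 17.7 and 13.3 TPM at 20h against 1.20 and 1.26 TPM at 2h in iMo, a relative log2 fold change of 2.73 ± 0.29 (adjusted p = 3.96e-07). In IM it had 8.32 and 13.02 TPM at 20h against 1.28 and 1.02 TPM at 2h, a change of 1.76 ± 0.29 (adjusted p = 5.06e-06). Pcna, the sliding clamp, was the most abundant of the 38 genes in 18 of the 27 libraries and changed less. It had 39.2 and 26.3 TPM at 20h against 11.2 and 10.1 TPM at 2h in iMo, and 21.1 and 21.5 TPM at 0h, so that the 0h level lies between them. The clamp loader genes Rfc4 and Rfc5 rose by 2.41 ± 0.56 and 1.70 ± 0.45 in iMo, and Rfc3 gave 0.90 ± 0.43 without passing the test (adjusted p = 0.0803). Fen1, which trims flaps, rose by 1.70 ± 0.34 in iMo, and Rpa2, which coats single strands, by 1.88 ± 0.41.

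Dna2, a nuclease and helicase that processes flaps and DNA ends, ran the other way in iMo. It stood at 19.6 and 17.9 TPM at 0h, 5.40 and 2.60 TPM at 2h, 6.19 and 5.79 TPM at 6h and 4.00 and 5.59 TPM at 20h. No later iMo library reached its 0h level. The fall against 0h was called at each time, with relative log2 fold changes of -1.61 ± 0.39 at 2h (adjusted p = 0.000387), -1.02 ± 0.39 at 6h (adjusted p = 0.00609) and -1.47 ± 0.39 at 20h (adjusted p = 0.00244). With title code as a covariate none of these 3 calls remained. After rescaling without Rn45s and Lars2 the call at 6h was lost, where 10.8% of all tested genes fell. In IM, Dna2 had 2.79 and 5.73 TPM at 0h and 0.961 to 5.81 TPM later, and in AM 3.18 to 10.0 TPM over all times. Dna2 in iMo at 20h against 2h did not pass the test, at 0.12 ± 0.39 (adjusted p = 0.681).

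**Figure D4:**
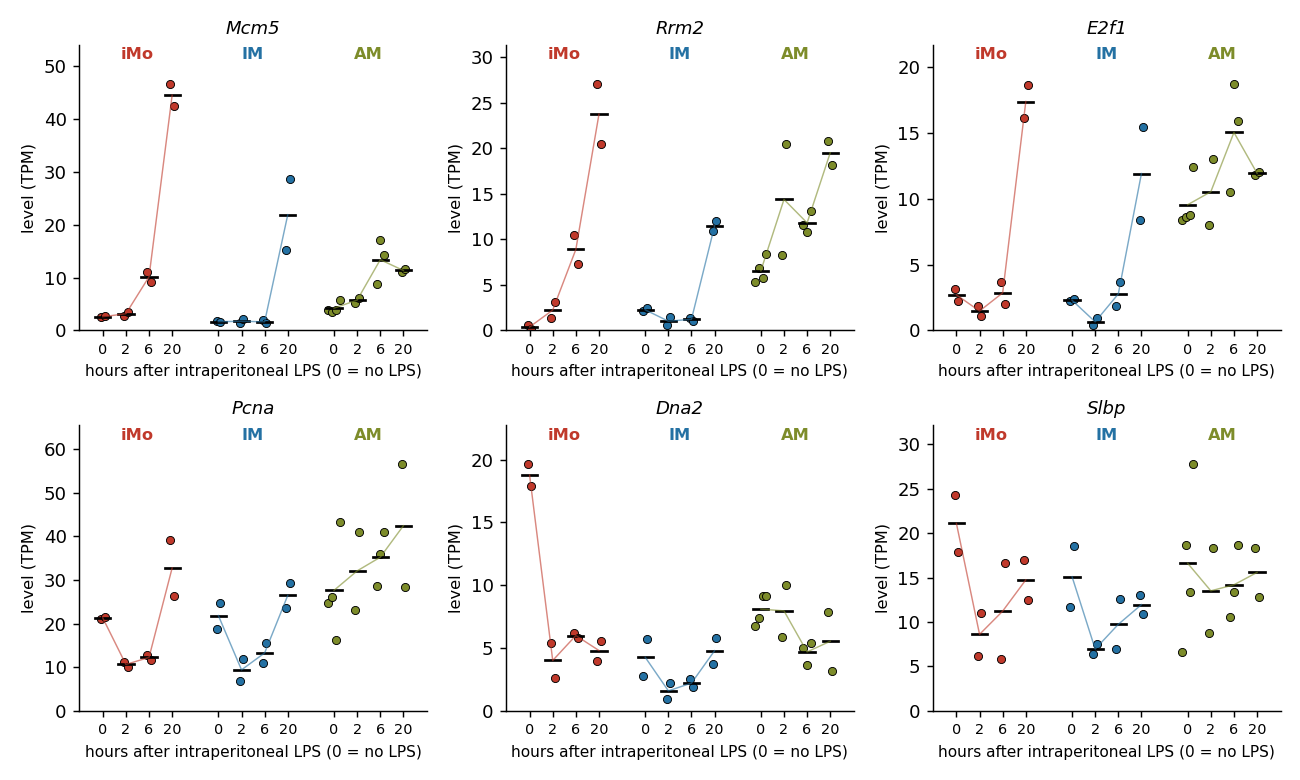
Level in TPM of Mcm5, Rrm2, E2f1, Pcna, Dna2 and Slbp in each library, by cell type and hours after LPS, each panel with its own linear axis from 0. Points are libraries, black lines group means and thin lines join the means. Mcm5, Rrm2 and E2f1 are highest at 20h in iMo and IM, Dna2 is highest at 0h in iMo (19.6 and 17.9 TPM), and Slbp shows no group apart from the rest.

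Nucleotide supply is led by ribonucleotide reductase, which makes deoxyribonucleotides. Rrm2, the regulatory subunit of ribonucleotide reductase, stood in iMo at 0.565 and 0.204 TPM at 0h, 1.36 and 3.13 TPM at 2h, 10.5 and 7.28 TPM at 6h and 27.1 and 20.4 TPM at 20h. In IM it stood at 2.10 and 2.43 TPM at 0h, 0.604 and 1.44 TPM at 2h, 1.38 and 1.08 TPM at 6h and 10.9 and 12.03 TPM at 20h. Each iMo time lies above the one before without overlap, while IM is higher at 20h alone. Its relative log2 fold change at 20h against 2h was 2.84 ± 0.36 in iMo (adjusted p = 3.23e-06) and 2.01 ± 0.36 in IM (adjusted p = 1.52e-05). The large subunit Rrm1 rose by 2.48 ± 0.36 in iMo and 2.16 ± 0.36 in IM. Dut, which removes dUTP, rose by 2.69 ± 0.54 in iMo and 1.69 ± 0.54 in IM. Tk1, the salvage kinase of thymidine, rose by 2.41 ± 0.45 in iMo and 0.94 ± 0.45 in IM. Thymidylate synthase, Tyms, was not tested and had 5.02 and 2.44 TPM at 20h against 0.388 and 2.29 TPM at 2h in iMo.

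In chromatin supply, Uhrf1, which carries DNA methylation through replication, had 8.07 and 12.5 TPM at 20h against 0.623 and 0.409 TPM at 2h in iMo, a relative log2 fold change of 2.73 ± 0.39 (adjusted p = 1.1e-05). In IM it had 3.84 and 7.13 TPM at 20h against 0.307 and 0 TPM at 2h, a change of 1.81 ± 0.39 (adjusted p = 6.6e-05). The histone chaperone subunits Chaf1a and Chaf1b rose by 2.48 ± 0.44 and 2.06 ± 0.44 in iMo and by 0.86 ± 0.44 and 1.54 ± 0.44 in IM. Slbp, which binds the stem loop of histone mRNAs, did not pass in either cell type, at 0.60 ± 0.51 in iMo (adjusted p = 0.32) and 0.05 ± 0.51 in IM (adjusted p = 0.283). In iMo it had 17.0 and 12.4 TPM at 20h against 6.22 and 11.0 TPM at 2h, below its 24.2 and 17.9 TPM at 0h.

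All 3 genes of G1/S control rose. E2f1, a transcription factor of the pathway, had 16.2 and 18.6 TPM at 20h against 1.89 and 1.06 TPM at 2h in iMo, a relative log2 fold change of 2.77 ± 0.36 (adjusted p = 4.47e-06). In IM it had 8.37 and 15.4 TPM at 20h against 0.400 and 0.913 TPM at 2h, a change of 2.27 ± 0.36 (adjusted p = 7.02e-06). The cyclin E genes Ccne1 and Ccne2 rose by 2.42 ± 0.44 and 1.95 ± 0.40 in iMo and by 1.47 ± 0.44 and 1.24 ± 0.40 in IM. Ccne1 had 9.13 and 9.94 TPM at 20h against 1.14 and 0.499 TPM at 2h in iMo.

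Early times were compared with the cells without LPS. At 2h in iMo, Rrm2 rose by 1.61 ± 0.36, against 8.41% of all tested genes that rose, and Dna2 and Rpa2 fell, against 24% that fell. With title code as a covariate no call remained at 2h, and without iMo 0h B171227 the count at 2h was 1. At 6h in iMo 9 genes rose, against 5.95% of all tested genes: Mcm2, Mcm5, Mcm6, Cdc45, Lig1, Rrm1, Rrm2, Uhrf1 and Chaf1a. Their relative log2 fold changes ran from 1.48 ± 0.29 for Lig1 to 3.31 ± 0.36 for Rrm2, and Dna2 was the 1 that fell, where 23.1% of all tested genes fell. Only Mcm5, Rrm1, Rrm2 and Dna2 kept the call with each library left out in turn, the others giving adjusted p of 0.0558 to 0.53 at some turn. The count was 5 without iMo 0h A171227 or without iMo 6h A161219, and 2 with title code as a covariate. Between 6h and 2h, Mcm5, Mcm7, Cdt1, Rrm2 and Ccne2 rose in iMo, against 3.30% of all tested genes, and each of these 5 calls was lost when 1 library was left out, with counts of 1 without iMo 6h A161219, 2 without iMo 2h B161219, 3 without iMo 6h B161219 and 4 without iMo 2h A161219. That comparison, like those of cell types at 6h and at 20h below, was added with the values known.

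At 20h against 0h, 25 of the 38 genes rose in iMo, against 7.39% of all tested genes, and Dna2 fell, against 14.8%. The relative log2 fold changes of those that rose ran from 1.64 ± 0.40 for Ccne2 to 4.47 ± 0.36 for Rrm2. Of the 26 calls, 19 held with each library left out in turn, and 14 held with title code as a covariate. The lost calls had adjusted p of 0.0895 or more under that covariate. This covariate rests on 1 library, the AM 0h library of code I, which alone ties 0h to a code of the LPS libraries.

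In IM, 13 genes fell at 2h against 0h, which is 40.6% of the 32 tested, where 40.8% of all tested genes fell. With the median of all genes, -0.79, subtracted they lay between -1.18 ± 0.39 for Cdt1 and -0.21 ± 0.39 for Dna2, whose tested change was -1.01 (adjusted p = 0.036). After quantile normalization 1 gene fell and 2 rose, where 23.2% of all tested genes fell. The number that fell was 1 with title code as a covariate, 3 without IM 0h B171227, 8 without IM 0h A171227 and 4 without the IM 2h library of code I. At 6h Gins1 and Lig1 fell, where 20.8% of all tested genes fell, and 1 of them did without IM 0h A171227 or without IM 6h A161219. None rose between 6h and 2h by limma's test, where 4.43% of all tested genes did and 3 of the replication genes had an unadjusted p under 0.05. At 20h against 0h 14 genes rose in IM, against 4.05% of all tested genes, led by Mcm5 at 3.13 ± 0.33 (adjusted p = 1.17e-06), Cdc45 at 2.39 ± 0.42 (adjusted p = 0.000416) and Rrm2 at 2.03 ± 0.36 (adjusted p = 0.000582). The others were Mcm2, Mcm3, Mcm6, Mcm7, Gins2, Lig1, Rrm1, Uhrf1, Chaf1a, Ccne1 and E2f1. This count was 22 after rescaling without Rn45s and Lars2, where 11.6% of all tested genes rose, and 9 with a pseudocount of 0.1 TPM, where 3.13% did. It was 5 without IM 20h B161219, 6 without IM 0h A171227 and 1, Mcm5, with title code as a covariate.

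AM held a summed level of the 38 genes of 201.4 TPM or more at all times, above every iMo and IM library before 20h. With the median of all genes subtracted, the median change of the tested replication genes in AM was 0.31 at 2h, 0.74 at 6h and 0.90 at 20h, each against 0h, and 0.89 at 20h without AM 20h A161219. No gene passed the test at 2h against 0h in AM, where 0.134% of all tested genes passed and 1 replication gene had an unadjusted p under 0.05. At 6h against 0h Mcm5 alone rose, against 0.929% of all tested genes, with 8.86, 17.1 and 14.2 TPM at 6h against 3.90, 3.44, 3.79 and 5.79 TPM at 0h, groups that do not overlap. Its relative log2 fold change was 1.59 ± 0.25 (adjusted p = 0.00216), and adjusted p = 0.321 with title code as a covariate. At 6h 16 replication genes had an unadjusted p under 0.05. After rescaling without Rn45s and Lars2, 9 rose at 6h, against 2.29% of all tested genes, and after quantile normalization 3 did, against 1.81%. The count at 6h was 2 without the AM 0h library of code I and 3 without AM 0h D171227. At 20h against 0h none passed limma's test in AM, where 0.112% of all tested genes did. There 12 had an unadjusted p under 0.05, 3 rose after rescaling and 3 after quantile normalization, where 0.224% and 0.157% of all tested genes did, and without AM 20h A161219 the count was again 0 and without the AM 0h library of code I it was 1. Rrm2 in AM had 20.8 and 18.2 TPM at 20h against 5.29 to 8.35 TPM at 0h, a relative log2 fold change of 1.76 ± 0.32 that did not pass the test (tested change 1.45, adjusted p = 0.0688), and without AM 20h A161219 it was 1.71 ± 0.41 (adjusted p = 0.919).

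Without LPS the cell types differed. In iMo against AM at 0h 14 genes were lower, against 13.4% of all tested genes. Rrm2 had 0.565 and 0.204 TPM in iMo against 5.29 to 8.35 TPM in AM, a relative log2 fold change of -2.59 ± 0.32 (adjusted p = 1.3e-06). Mcm6 had 1.67 and 1.30 TPM in iMo against 6.49 to 25.1 TPM in AM, at -2.42 ± 0.40 (adjusted p = 9.3e-05). Tk1 had 0.451 and 1.62 TPM in iMo against 5.13 to 14.6 TPM in AM, at -2.33 ± 0.39 (adjusted p = 9.57e-05). None of these 3 pairs of groups overlaps, but the 3 genes were named for the size of their change, so this is no further support. The other 11 were Mcm2, Mcm7, Cdt1, Gins2, Prim1, Prim2, Lig1, Rrm1, Uhrf1, Chaf1a and E2f1. Dna2 was higher in iMo, at 19.6 and 17.9 TPM against 6.74 to 9.13 TPM in AM (0.98 ± 0.34, adjusted p = 0.013), where 16.2% of all tested genes were higher. After rescaling without Rn45s and Lars2, 23 genes were lower, against 26.1% of all tested genes, and Dna2 no longer passed (adjusted p = 0.143). With each library left out in turn 8 of these 15 calls held, and Mcm7, Cdt1, Gins2, Prim2, Dna2, Uhrf1 and Chaf1a lost theirs with adjusted p of 0.0672 to 0.606.

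In IM against AM at 0h 7 genes were lower, against 11% of all tested genes. These were E2f1, Mcm7, Gins2, Rrm2, Cdc45, Mcm5 and Rrm1. E2f1 had 2.23 and 2.36 TPM in IM against 8.36 to 12.4 TPM in AM, at -1.67 ± 0.32 (adjusted p = 0.000212), and was the only 1 of the 7 to hold with each library left out, the count then running from 1 without IM 0h A171227 to 9 without the AM 0h library of code I. In iMo against IM at 0h Lig1 and Rrm2 were lower, against 6.32% of all tested genes, and Dna2 was higher, against 0.739%. Lig1 had 0.601 and 1.15 TPM in iMo against 5.21 and 4.40 TPM in IM, at -1.79 ± 0.29 (adjusted p = 0.000333). Dna2 had 19.6 and 17.9 TPM in iMo against 2.79 and 5.73 TPM in IM, at 1.82 ± 0.39 (adjusted p = 0.00109), a call lost without IM 0h A171227, when 1 of the 3 calls remained.

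Over the 3 LPS times all 6 iMo libraries carry code II, while 3 of the 7 AM and 2 of the 6 IM libraries carry code I. There 17 genes were lower in iMo than in AM, against 27.6% of all tested genes. Tk1 led at -1.70 ± 0.25 (adjusted p = 2.16e-06), followed by Gins2 at -1.45 ± 0.27 and Mcm7 at -1.35 ± 0.24. In IM against AM 29 genes were lower, against 36.6% of all tested genes, led by Mcm7 at -1.77 ± 0.24 (adjusted p = 8.67e-08) and Rrm2 at -1.72 ± 0.20 (adjusted p = 1.04e-08). In iMo against IM 6 genes were higher and none lower, against 4.22% of all tested genes that were higher. These were Rrm2 at 1.11 ± 0.21, Mcm5 at 1.10 ± 0.19, Cdt1 at 0.89 ± 0.22, Rrm1 at 0.85 ± 0.20, Cdc45 at 0.79 ± 0.24 and Fen1 at 0.68 ± 0.20. Without the libraries of code I the calls of Gins1, Prim1 and Rfc3 between iMo and AM, of Gins1 between IM and AM and of Cdc45 between iMo and IM were lost. After rescaling without Rn45s and Lars2, 23 genes were higher in iMo than in IM, against 30.4% of all tested genes.

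At single times, 4 of these genes were already higher in iMo than in IM at 6h, against 0.918% of all tested genes. They were Rrm2 at 2.03 ± 0.36 (adjusted p = 0.000831), Mcm5 at 1.98 ± 0.33 (adjusted p = 0.000377), Cdt1 at 1.31 ± 0.39 (adjusted p = 0.0433) and Rrm1 at 1.26 ± 0.36 (adjusted p = 0.0342). The count was 2 without iMo 6h A161219 or without either IM library of 6h, and 13 after rescaling, where 10.3% of all tested genes were higher. At 20h none passed limma's test between iMo and IM, where 1.25% of all tested genes passed and 6 replication genes had an unadjusted p under 0.05. None passed between IM and AM at 20h, where 18.5% of all tested genes passed and 4 replication genes had an unadjusted p under 0.05, and leaving out either IM library of 20h gave 1. Without AM 20h A161219 that count was again 0. In iMo against AM at 20h 2 genes were higher, against 8.92% of all tested genes: Mcm5 had 46.6 and 42.4 TPM in iMo against 11.1 and 11.6 TPM in AM (1.72 ± 0.33, adjusted p = 0.000187), and Fen1 had 27.8 and 17.8 TPM in iMo against 11.0 and 10.2 TPM in AM (0.84 ± 0.34, adjusted p = 0.0461). The call of Fen1 was lost without AM 20h A161219, without the AM 20h library of code I and without iMo 20h A161219, when the count was 1.

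The difference of the response itself was tested over the 3 LPS times against 0h. It passed for 17 genes between iMo and AM, where 17.3% of all tested genes passed, for 15 genes between IM and AM, where 26.5% did, and for 3 genes between iMo and IM, where 3.75% did. The 3 were Rrm2, Lig1 and Rrm1, all with lower levels in iMo than in IM at 0h and higher ones at 20h. Each of these responses rests on the same 0h libraries as the comparisons with 0h above. After quantile normalization 7 of the 32 tested genes passed between IM and AM, where 28.6% of all tested genes did. The count between iMo and AM was 8 without iMo 20h A161219 and 10 without AM 20h A161219, that between IM and AM was 23 without the AM 2h library of code I, and that between iMo and IM was 1 without iMo 0h A171227.

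Other lists of the pathway were set beside these genes, by counts and with no test of a list. At 20h against 2h, 14.7% of all tested genes rose and 10.3% fell in iMo, and 31.8% rose and 7.17% fell in IM. Of 44 further replication genes, 32 were tested and 19 rose at 20h against 2h in iMo and 20 in IM, with 1 lower in IM. Gmnn, the inhibitor of Cdt1, averaged 30.3 TPM at 20h against 0.881 TPM at 2h in iMo (3.89 ± 0.39, adjusted p = 2.38e-07) and 22.5 TPM against 0.773 TPM in IM (3.08 ± 0.39, adjusted p = 1.52e-06). Pold1, the catalytic subunit of polymerase delta, averaged 15.4 TPM at 20h against 0.723 TPM at 2h in iMo. Among 32 genes of E2F, Rb and cyclin control, 21 were tested and 7 rose in iMo and 11 in IM at 20h against 2h. In iMo these included Cdk2 at 2.17 ± 0.37 and Cdk4 at 2.10 ± 0.53, both kinases of G1, and Myc at 1.98 ± 0.45. In nucleotide metabolism, 14 of 18 genes were tested, with 8 higher and 2 lower in iMo and 10 higher in IM. Shmt2, a mitochondrial enzyme of one-carbon supply, averaged 28.9 TPM at 20h against 3.11 TPM at 2h in iMo. No gene of these lists passed in AM at 20h against 2h, where 0.0224% of all tested genes did.

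Of 30 G2/M and mitosis genes 25 were tested. In iMo 22 of these rose at 6h against 0h, beside 9 of the 32 tested replication genes and 5.95% of all tested genes. At 20h against 0h 24 rose, against 7.39% of all tested genes. Their sum in iMo was 32.0 and 36.0 TPM at 0h, 50.4 and 59.4 TPM at 2h, 299.6 and 264.2 TPM at 6h and 317.5 and 265.4 TPM at 20h. The G2/M sum at 6h thus overlapped that at 20h, whereas the replication sum at 6h, 186.6 and 165.8 TPM, lay below the 662.6 and 533.2 TPM at 20h. Whether the 2 lists differ in timing was not tested. In IM the G2/M sum was 62.6 and 72.4 TPM at 0h, 32.7 and 49.3 TPM at 2h, 72.7 and 86.5 TPM at 6h and 155.8 and 226.5 TPM at 20h.

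Markers of other cells changed as well, some in the direction of the replication genes and some not. Granulocyte and monocyte progenitor markers (7 genes, 4 tested) summed in iMo to 42.5 and 35.0 TPM at 0h, 15.2 and 11.4 TPM at 2h, 79.4 and 90.1 TPM at 6h and 75.8 and 33.8 TPM at 20h. Of these, Prtn3 and Elane, granule proteases of progenitors, rose at 20h against 2h, while Kit was 0 and 0.139 TPM at 20h in iMo. Mature neutrophil markers (6 genes, all tested) summed in iMo to 2646 and 2761 TPM at 20h against 275.6 and 513.8 TPM at 2h, with 5 higher and 1 lower. In IM they summed to 27448 and 34094 TPM at 20h against 18790 and 21302 TPM at 2h, without overlap, and 1 of the 6 passed the test, higher. Immature neutrophil markers (6 genes, all tested) summed to 270.6 and 181.2 TPM at 20h against 67.4 and 168.8 TPM at 2h in iMo, with 3 higher. In IM they summed to 961.8 and 993.9 TPM at 20h against 1271 and 1628 TPM at 2h, with 3 lower. Classical monocyte markers (8 genes, all tested) summed in iMo to 3559 and 2679 TPM at 20h against 5870 and 7575 TPM at 2h, with 4 lower. Interstitial macrophage markers (10 genes, all tested) rose for 4 genes in iMo and 6 in IM. Beside these counts, 14.7% of all tested genes rose and 10.3% fell in iMo at 20h against 2h. In IM 31.8% rose and 7.17% fell. The part of these markers in the rise of the replication genes was not tested.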

How the data were processed

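Polyadenylated RNA of sorted mouse lung cells was made into low-input libraries by a modified Smart-seq2 method, per the labels' protocols. The values are TPM as deposited by the authors, and per the submitters' processing notes STAR, HOMER and the build mm10 were used, with versions not given in the sources used here. TPM keeps no sequencing depth, so depth is unknown and no counting interval can be given. The rows of each library sum to 331473 to 551635 TPM, and Rn45s alone holds 4.33 to 33.32% of that sum.

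Levels were taken as log2(TPM + 1). A filter of 5 TPM, reached in 2 or more of the 27 libraries, kept 8937 of 23594 genes. One linear model with 12 groups (limma 3.58.1 in R 4.3.3, mean-variance trend, 15 residual degrees of freedom) gave each comparison, and p-values were adjusted by Benjamini-Hochberg over all 8937 genes, with a call at adjusted p under 0.05. The 18 comparisons and 3 tests of a difference in response were planned and 7 comparisons were added with values known. The tests were checked on simulated data with changes put only in genes above a set mean level. That check does not cover lower genes. Where at most 12 genes were called in a comparison they are named, and otherwise up to 3 with the largest changes in each role, while other genes of the list may be named too. The genes, roles, lists and markers were chosen with earlier results of these data known. Replicate labels were not used to pair libraries, as the correlation of deviations was over 0.1 in 9 of 18 pairs and not in all. Alternatives were a pseudocount of 0.1 TPM, no filter, quantile normalization, rescaling without Rn45s and Lars2, title code as a covariate, a replicate block, each library left out, and the libraries of the lowest title code left out. Promoter words were searched with Python 3.11.15.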

Additional observations from a re-analysis of the deposited data

Results flagged for a closer look

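In AM at 0h, E2f1 stood at 12.433 TPM in the library D171227, apart from 8.36, 8.62 and 8.76 TPM in the other 3 libraries. This gap passed Dixon's criterion, as 1 of 39 values tested did, and chance alone gives about 1 in 20.

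The response to LPS over 2h, 6h and 20h differed between cell types by an F test of the interaction, for 17 replication genes between iMo and AM, 15 between IM and AM and 3 between iMo and IM. Between iMo and AM the smallest adjusted p were 0.000896 for Rrm2, 0.00135 for Mcm5 and 0.0021 for Rrm1. Between IM and AM they were 0.000344 for Mcm5, 0.000691 for Lig1 and 0.00337 for E2f1. Between iMo and IM they were 0.00181 for Rrm2, 0.00275 for Lig1 and 0.026 for Rrm1. Beside these counts of 17, 15 and 3, the shares of all tested genes that passed were 17.3%, 26.5% and 3.75%. With title code as a covariate the counts were 19, 14 and 3. The shares of all tested genes then rose to 26.2%, 32.1% and 4.98%.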

How the results depend on the processing

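Counts below are of replication genes called. Under a pseudocount of 0.1 TPM, rescaling, the title code and the replicate block, 32 genes were tested at 20h against 2h. The rise was called for 28 to 30 in IM, where 26.8% to 41.8% of all tested genes rose. In iMo it was called for 29 to 31, where 14.5% to 30% did. Quantile normalization gave 24 in IM and 29 in iMo, where 18.7% and 19.7% of all tested genes rose. With no filter 38 genes were tested, and 28 rose in IM and 33 in iMo, where 10% and 5.11% of all tested genes did. Quantile normalization moved the median of all genes in IM at 2h against 0h from -0.79 to -0.07, and rescaling without Rn45s and Lars2 moved that of iMo at 20h against 0h from -0.31 to 0.34, so changes are read against that median. Shares of all tested genes moved too. Those lower in IM than AM at 0h were 11%, and 21.1% after quantile normalization. Rescaling took those lower in iMo than AM at 0h from 13.4% to 26.1%, and those higher in iMo at 6h against 2h from 3.30% to 10.8%. Title code took those higher in iMo at 20h against 0h from 7.39% to 1.60%. Between iMo and IM at 0h the pseudocount took the share called from 7.06% to 6.03%, while the count of replication genes rose. The cause of the shifts below was not tested.

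With a pseudocount of 0.1 TPM, counts became 5 for iMo against IM at 0h, 9 for IM at 20h against 0h, 1 for IM at 6h against 2h and 1 for iMo against AM at 20h. With no filter they became 7 for IM at 2h against 0h, 3 for iMo at 6h against 2h, 2 for iMo against IM at 6h, 1 for iMo against AM at 20h and 9 for the iMo and AM response. Quantile normalization gave 14 for the 0h contrast of IM with AM. Against 0h it gave 3 each for AM after 6h and after 20h and for IM after 2h (2 higher and 1 lower there). It also gave 1 for IM at 6h and 5 for iMo at 2h, both against 0h. At 6h against 2h it gave 2 for IM and 12 for iMo. At 20h it gave 3 for IM against AM and 1 for iMo against IM. The IM and AM response was called for 7 of the 32 tested genes, where 28.6% of all tested genes were. The iMo and IM response was called for 5, where 5.44% of all tested genes were. Rescaling gave 23 for iMo against AM, 15 for IM against AM and 5 for iMo against IM at 0h, 9 for AM after 6h and 3 for AM after 20h against 0h, 22 for IM at 20h against 0h, 23 for iMo against IM over LPS times, 1 for IM and 12 for iMo at 6h against 2h, 13 for iMo against IM at 6h, 5 for iMo and 5 for IM against AM and 3 for iMo against IM at 20h, and 7 for the iMo and IM response.

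Title code as a covariate gave 0 for AM at 6h, 1 for IM at each of 2h, 6h and 20h, 0, 2 and 14 for iMo at 2h, 6h and 20h, all against 0h, and 1 for IM and 8 for iMo at 6h against 2h. The replicate block, gave 6 for iMo against AM and 1 for IM against AM at 0h, 0 for AM at 6h, 2, 0 and 0 for IM and 0, 0 and 6 for iMo at 2h, 6h and 20h against 0h, 1 for IM and 9 for iMo at 6h against 2h, 1 for the 20h contrast of IM with AM and 5 for the iMo and IM response. Deviations of libraries with the same label correlated at -0.245 to 0.549 over 18 pairs, 9 of them over 0.1. All 7 pairs that hold the label of code I were positive (0.115 to 0.549), so these libraries did deviate together, but the labels as a whole were not taken to pair libraries. Under that block Mcm2 in iMo at 6h against 0h reversed to -0.0223. Leaving out the 6 libraries of code I was an alternative added with values known. Counts were then 11 for the 0h contrast of IM with AM and 6 for iMo at 2h against 0h. In iMo 29 genes rose at 20h against 2h. The only AM library of 20h then left was A161219, with interstitial macrophage markers at 3989 TPM. AM at 2h and IM at 2h and 6h were likewise left with 1 library. The median of all genes in AM at 20h against 0h moved from -0.31 to -0.61. The part of A161219 in this was not tested.

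Leaving out each library gave 1 to 9 for IM against AM and 1 to 2 for iMo against IM at 0h, 1 to 3 for AM after 6h and 0 to 1 for AM after 20h, 3 to 10, 1 to 2 and 5 to 10 for IM at 2h, 6h and 20h, 1 to 4, 5 to 8 and 21 to 24 for iMo at 2h, 6h and 20h, all against 0h, 1 to 4 for iMo at 6h against 2h, 2 to 3 for iMo against IM at 6h, 1 to 2 for iMo and 0 to 1 for IM against AM at 20h, and 8 to 25, 10 to 23 and 1 to 4 for the iMo and AM, IM and AM, and iMo and IM responses. The number of genes above all earlier AM libraries at 20h became 10 with 1 library left, where 2.53% of all genes were. At 20h against 2h it gave 23 to 29 for iMo and 21 to 30 for IM. Groups left with 1 library were assumed to vary like the others. TPM gives no depth, so low genes such as Pole and Cdc6 carry an unknown counting error.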
